A study of Homo sapiens with 12 samples.

Results

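The genes described here form the amino acid and integrated stress response, a set of 47 named genes covering stress transcription factors, their feedback regulators, secreted stress proteins, amino acid enzymes, amino acid transporters and aminoacyl-tRNA synthetases. Members were found by gene symbol in the annotation of the array, and a probe was used where it was detected (detection p under 0.01) on at least 2 of 12 arrays. Of the 47 genes, 44 had a probe in the annotation and 43 could be tested, among 11164 genes tested in all. CHAC1, an enzyme that breaks down glutathione, had 1 probe detected on 1 array and was not tested. GPT2, CARS1 and HERPUD1 had no probe under their symbol in the annotation used here and were not analysed.

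The cells were sublines of 22Rv1, an established human prostate carcinoma line, grown in RPMI medium with 10% fetal bovine serum. HNF4Gsh1 and HNF4Gsh2 cells carry different doxycycline-inducible hairpins against HNF4G, a nuclear receptor transcription factor, and shScr cells are the control subline, labelled SCR. The 6 groups were HNF4Gsh1 with and without doxycycline, HNF4Gsh2 with and without doxycycline, and shScr with and without doxycycline, each with 2 arrays. Doxycycline or vehicle was given for 3 days, and RNA was isolated with RNeasy columns and read on Illumina bead arrays. Each hairpin is represented by 1 subline, so hairpin and subline cannot be told apart. The labels do not say whether replicate arrays came from separate cultures, so the spread behind a p-value here may be technical. That spread is how far replicate arrays lay apart in all 6 groups together, drawn toward the spread of other genes, and not that of the compared groups alone.

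In the integrated stress response, kinases that sense amino acid shortage, unfolded protein, haem loss or viral RNA phosphorylate the translation factor eIF2 on its alpha subunit, which lowers general translation while the ATF4 message is translated more. ATF4 pairs with C/EBP proteins and other bZIP factors and activates genes for amino acid synthesis, amino acid uptake and tRNA charging. DDIT3, which encodes CHOP, and ATF3 act below ATF4, and TRIB3 and PPP1R15A feed back to restrain the response. In prostate cancer cells ATF4 is known to support growth through amino acid metabolism.

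ATF4 and C/EBP proteins bind a composite element written TGATGNAA, and this element was searched for on both strands of the promoter windows from 250 bases before to 50 bases after each start site in the RefSeq table for GRCh38.p14. Of the 47 genes, 39 had a window, and 17 of these 39 genes (43.6%) held the element, against 1217 of 27305 genes in the whole table (4.46%). Counted by window, the element was present in 17 of 63 windows of the set (27%) and in 1270 of 35116 windows of the table (3.62%). By role, it was present in 7 of 11 synthetase and tRNA export genes, 4 of 6 transporters, 3 of 7 transcription factors, 2 of 6 feedback regulators and effectors, 1 of 7 enzymes and 0 of 2 secreted proteins. A match is a description of these letters and not a measured binding site. The genes were listed as members of this response, so their higher share depends on that choice and is not an independent result. The following stretches show the element, in capitals, in 8 members, all written 5′ to 3′ along the gene. Where the element lies on the opposite strand its reverse complement is capitalised.
ASNS: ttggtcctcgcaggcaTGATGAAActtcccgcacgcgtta
ATF3: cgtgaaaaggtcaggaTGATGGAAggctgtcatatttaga
CEBPG: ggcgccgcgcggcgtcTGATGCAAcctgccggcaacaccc
JDP2: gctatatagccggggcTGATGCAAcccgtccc
SLC1A5: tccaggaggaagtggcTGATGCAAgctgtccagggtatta
AARS1: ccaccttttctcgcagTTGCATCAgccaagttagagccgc
GARS1: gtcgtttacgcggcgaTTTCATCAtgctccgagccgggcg
IARS1: ccgcattttcagcgcgTTGCATCAcctcc

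The ASNS stretch lies at chr7:97872453-97872492 on the minus strand, the ATF3 stretch at chr1:212565200-212565239 on the plus strand and the AARS1 stretch at chr16:70289670-70289709 on the minus strand. Read along the gene, the last base of the element lay 61 bases before the start site in ASNS, 184 bases before it in ATF3 and 180 bases before it in AARS1. Stretches of CEBPG at chr19:33374055-33374094 and JDP2 at chr14:75427990-75428021 are on the plus strand, and that of SLC1A5 at chr19:46784888-46784927 is on the minus strand. The GARS1 stretch is at chr7:30594829-30594868 on the plus strand and the IARS1 stretch at chr9:92293698-92293726 on the minus strand.

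The 3 members whose change with doxycycline passed the test, GDF15, STC2 and DDIT3, did not hold these letters in their windows, which says nothing about the factor. Their 250 bases before the start site are printed because the main results turn on these genes. They lie at chr19:18385908-18386157 on the plus strand for GDF15, chr5:173328415-173328664 on the minus strand for STC2 and chr12:57520515-57520764 on the minus strand for DDIT3.
GDF15: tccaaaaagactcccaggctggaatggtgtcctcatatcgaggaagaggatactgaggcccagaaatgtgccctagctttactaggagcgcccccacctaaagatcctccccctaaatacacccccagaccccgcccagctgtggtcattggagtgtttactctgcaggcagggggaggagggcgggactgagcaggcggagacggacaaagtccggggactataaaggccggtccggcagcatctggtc
STC2: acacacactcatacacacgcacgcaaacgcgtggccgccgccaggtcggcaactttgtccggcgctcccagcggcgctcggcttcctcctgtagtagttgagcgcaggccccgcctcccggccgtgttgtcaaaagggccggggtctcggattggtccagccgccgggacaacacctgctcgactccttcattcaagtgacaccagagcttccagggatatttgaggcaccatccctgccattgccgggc
DDIT3: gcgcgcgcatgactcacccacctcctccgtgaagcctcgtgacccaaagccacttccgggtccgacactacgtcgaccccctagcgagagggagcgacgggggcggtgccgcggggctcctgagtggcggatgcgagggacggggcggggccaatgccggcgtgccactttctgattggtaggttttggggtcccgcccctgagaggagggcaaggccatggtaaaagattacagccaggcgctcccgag
In the gene table DDIT3 and the member MARS1 are neighbouring protein-coding genes on chromosome 12, and the 47 genes lie on 19 chromosomes.

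Expression is given as log2 intensity after background correction and quantile normalization, and changes are differences of group means on that scale. Median raw intensity was 92.5 to 108 per array, with 14959 to 18293 probes detected, and replicate arrays correlated at 0.989 to 0.991 across genes. HNF4G was at 4.73 and 4.83 in HNF4Gsh1 cells with doxycycline and 6.30 and 6.18 without it, at 4.71 and 4.35 in HNF4Gsh2 cells with doxycycline and 6.40 and 6.49 without it, and at 5.81 and 6.19 in shScr cells with doxycycline and 6.35 and 6.13 without it. With doxycycline it was not well above background on any array of either hairpin subline, so its fall was at least 2.08-fold with HNF4Gsh1 (limma, adjusted p = 8.01e-04) and at least 2.48-fold with HNF4Gsh2 (adjusted p = 8.50e-05). Of 9 luminal prostate markers 6 were measured (KRT8, KRT18, KLK2, TMPRSS2, FOLH1 and HOXB13), of 10 stromal markers 3 (DCN, LUM and VIM) and of 10 blood and immune markers 4 (CD14, CD68, CD79A and HBA1); PTPRC, CD3E and COL1A1 were not detected on enough arrays to be tested. The summed log2 level of the luminal markers was 49.37 with doxycycline and 49.32 without it in HNF4Gsh1 cells, 50.90 with and 50.02 without it in HNF4Gsh2 cells, and 48.20 with and 48.12 without it in shScr cells. The sum of the stromal markers was 21.60 with and 21.29 without it in HNF4Gsh1 cells, 21.98 with and 21.60 without it in HNF4Gsh2 cells, and 18.74 with and 20.10 without it in shScr cells. The sum of the blood and immune markers lay between 26.13 and 27.35 in all groups. With doxycycline in HNF4Gsh2 cells 3 of the 6 luminal markers were higher and 3 lower, the latter KRT8, KRT18 and KLK2. Of the 6, FOLH1 alone passed there, as higher (0.72 ± 0.16, SE, adjusted p = 0.0367), against 2.07% of all genes in either direction. The part of these markers in the results below was not tested. All samples were 22Rv1 sublines, so the list names describe the genes and do not count stromal or blood cells. In such bulk RNA, fewer cells expressing a gene and less of its RNA per cell cannot be told apart.

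The secreted stress proteins GDF15 and STC2 fell with doxycycline in HNF4Gsh1 cells and hold 2 of the 3 calls of the set. GDF15, a hormone of the TGF-beta family that is released by stressed cells, was at 7.59 and 7.77 in HNF4Gsh1 cells with doxycycline, against 8.67 and 8.68 in HNF4Gsh1 cells without it. It was at 8.49 and 8.62 in HNF4Gsh2 cells with doxycycline, against 9.01 and 8.89 without it, and at 8.69 and 8.47 in shScr cells with doxycycline, against 8.79 and 8.50 without it. The HNF4Gsh1 arrays with doxycycline were the lowest of the 12, the groups did not overlap with either hairpin, and they overlapped in shScr cells. GDF15 fell by 0.99 on the log2 scale with HNF4Gsh1 (SE 0.16, 95% interval -1.33 to -0.65, 1.99-fold lower, adjusted p = 0.00674). The change was -0.40 ± 0.16 with HNF4Gsh2 (adjusted p = 0.239) and -0.07 ± 0.16 in shScr cells, neither of which passed. The call with HNF4Gsh1 was lost without HNF4Gsh1 with doxycycline replicate 1 (adjusted p = 0.0987), without HNF4Gsh1 no doxycycline replicate 2 (0.0519), and with the arrays scaled to the same median (0.0941).

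STC2, the secreted glycoprotein stanniocalcin, was at 6.99 and 6.72 in HNF4Gsh1 cells with doxycycline, against 7.67 and 7.69 without it. In HNF4Gsh2 cells it was at 7.25 and 6.88 with doxycycline, against 7.22 and 7.30 without it, and in shScr cells at 7.02 and 6.80, against 7.05 and 7.26. The HNF4Gsh1 groups were clearly apart, the HNF4Gsh2 groups overlapped, and the shScr groups lay next to each other without overlapping. STC2 fell by 0.82 with HNF4Gsh1 (SE 0.17, 95% interval -1.19 to -0.45, 1.77-fold lower, adjusted p = 0.0351), and its change was -0.20 ± 0.17 with HNF4Gsh2 and -0.25 ± 0.17 in shScr cells. The HNF4Gsh1 cells without doxycycline were also the highest of the 3 untreated sublines, at 0.52 ± 0.17 over untreated shScr cells, which did not pass (adjusted p = 0.270). The call was lost without each of the 4 HNF4Gsh1 arrays and without either untreated HNF4Gsh2 array (adjusted p 0.0545 to 0.221), with arrays scaled to the same median (0.257) and without a detection filter (0.0532).

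**Figure D1:**
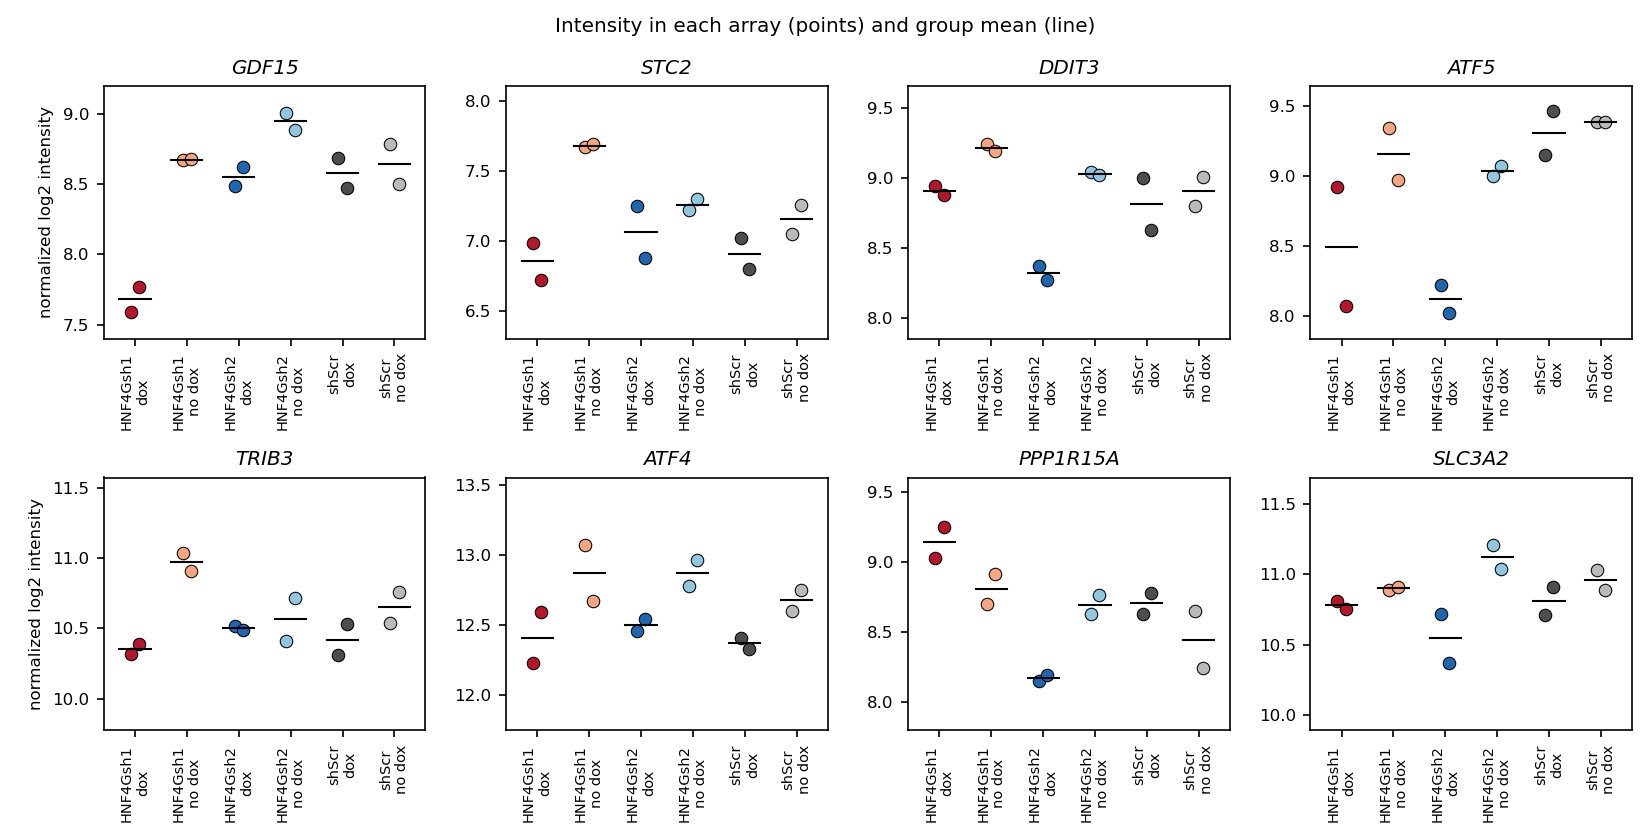
Normalized log2 intensity (vertical axes, all of the same span and centred for each gene) of 8 stress response genes in the 6 groups (horizontal axis). Each point is 1 array and each line a group mean. GDF15 was lowest on the 2 HNF4Gsh1 arrays with doxycycline (7.59 and 7.77) and DDIT3 on the 2 HNF4Gsh2 arrays with doxycycline (8.37 and 8.27).

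With HNF4Gsh1, GDF15 and STC2 were the members that passed, both lower, out of 43 tested; among all genes tested 1.06% passed in either direction and 0.833% passed as lower. At an unadjusted p under 0.05 there were 7 members lower and 1 higher, against 6.55% and 5.80% of all genes. The higher one was VLDLR, which was not detected on either untreated HNF4Gsh1 array. With HNF4Gsh2, DDIT3 was the member that passed, lower, against 2.07% of all genes in either direction and 1.42% as lower. At an unadjusted p under 0.05 there were 9 members lower and 1 higher, against 7.82% and 7.59% of all genes. In shScr cells 0 of 43 members passed, with 0 members at an unadjusted p under 0.05, against 0.0269% of all genes past the adjusted threshold and 9.64% at the unadjusted one.

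Among the 8 transcription factors, DDIT3 was the one that passed the threshold, with HNF4Gsh2. ATF5, described below, fell further there but missed the threshold. DDIT3, whose product CHOP can turn the response toward cell death, was at 8.37 and 8.27 in HNF4Gsh2 cells with doxycycline, against 9.04 and 9.02 without it. It was at 8.94 and 8.88 in HNF4Gsh1 cells with doxycycline, against 9.24 and 9.19 without it, and at 9.0 and 8.63 in shScr cells with doxycycline, against 8.80 and 9.01 without it. Both hairpin sublines had all treated arrays below all untreated ones, while the shScr groups overlapped. DDIT3 fell by 0.72 with HNF4Gsh2 (SE 0.16, 95% interval -1.06 to -0.37, 1.64-fold lower, adjusted p = 0.0352); the change was -0.31 ± 0.16 with HNF4Gsh1 and -0.09 ± 0.16 in shScr cells. The call was lost without each of the 4 HNF4Gsh2 arrays and without either treated HNF4Gsh1 array (adjusted p 0.0512 to 0.201), and with arrays scaled to the same median (0.198).

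ATF4, the activator at the head of the set, was at 12.23 and 12.59 in HNF4Gsh1 cells with doxycycline, against 13.07 and 12.67 without it. The values were 12.46 and 12.54, against 12.78 and 12.96, in HNF4Gsh2 cells, and 12.41 and 12.33, against 12.60 and 12.75, in shScr cells. Treated arrays lay below untreated ones in all 3 sublines, the shScr control included. The changes of -0.46 ± 0.18, -0.37 ± 0.18 and -0.30 ± 0.18 with HNF4Gsh1, HNF4Gsh2 and shScr had adjusted p of 0.294, 0.335 and 0.605. The other 2 ATF4 probes gave -0.43 and -0.29 with HNF4Gsh1, -0.30 and -0.31 with HNF4Gsh2, and 0.30 and 0.07 in shScr cells, so that in shScr cells the probes differed in sign. With the mean of the probes in place of the brightest, the shScr change was 0.02. Since ATF4 is regulated mainly through translation, its message is one part of its activity, and protein was not measured here.

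ATF5, a bZIP factor whose translation is controlled much like that of ATF4, was at 8.92 and 8.07 in HNF4Gsh1 cells with doxycycline, against 9.34 and 8.97 without it. It was at 8.22 and 8.02 in HNF4Gsh2 cells with doxycycline, against 9.0 and 9.07 without it, and at 9.15 and 9.46 in shScr cells with doxycycline, against 9.38 and 9.38 without it. Treated arrays of both hairpin sublines were lower without overlap, and the 2 treated HNF4Gsh1 arrays were far apart. ATF5 had the largest member difference with HNF4Gsh2, -0.92 ± 0.23, and missed the threshold (adjusted p = 0.0623); with HNF4Gsh1 it was -0.66 ± 0.23 (0.235) and in shScr cells -0.07 ± 0.23. It passed with HNF4Gsh2 in 6 of the 20 alternative fits, with adjusted p of 0.00665 to 0.306 over all of them.

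ATF3, an immediate stress factor, was at 8.72 and 8.81 in HNF4Gsh1 cells with doxycycline, against 8.96 and 9.13 without it. The corresponding values were 8.80 and 8.88, against 8.72 and 8.93, in HNF4Gsh2 cells, and 8.25 and 8.54, against 8.80 and 8.32, in shScr cells. These groups lay apart with HNF4Gsh1 and overlapped in the other sublines, and no change passed (-0.28 ± 0.18, 0.01 ± 0.18 and -0.17 ± 0.18). CEBPB and CEBPG, the bZIP partners of ATF4, lay between -0.11 and 0.18 in all 3 sublines. JDP2, a repressor of the AP-1 family that was detected on 7 of 12 arrays, was at 0.23, 0.33 and 0.24 with HNF4Gsh1, HNF4Gsh2 and shScr. NUPR1, a small chromatin protein of the stress response, was at -0.28, -0.13 and -0.26, and its second probe at -0.35, -0.50 and 0.07.

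The 4 feedback regulators and effectors had values in both directions, and none passed. TRIB3, a pseudokinase induced by ATF4 and CHOP that restrains them, was at 10.32 and 10.39 in HNF4Gsh1 cells with doxycycline, against 11.04 and 10.91 without it. It was at 10.52 and 10.49 in HNF4Gsh2 cells with doxycycline, against 10.41 and 10.72 without it, and at 10.31 and 10.53 in shScr cells, against 10.54 and 10.76. The 2 untreated HNF4Gsh1 arrays were the highest of the 12. The change of -0.61 ± 0.16 with HNF4Gsh1 did not pass (adjusted p = 0.0966) and passed in 3 of 20 alternative fits; the others were -0.06 ± 0.16 and -0.23 ± 0.16.

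PPP1R15A, the phosphatase subunit that removes the phosphate from eIF2, was at 9.03 and 9.25 in HNF4Gsh1 cells with doxycycline, against 8.70 and 8.91 without it. In HNF4Gsh2 cells it was at 8.15 and 8.19 with doxycycline, against 8.63 and 8.76 without it, and in shScr cells at 8.63 and 8.78, against 8.65 and 8.24. The treated groups lay above the untreated one with HNF4Gsh1 and below it with HNF4Gsh2. The changes of 0.33 ± 0.17, -0.52 ± 0.17 and 0.26 ± 0.17 did not pass, nor did the difference between the hairpin responses, -0.86 ± 0.24 for HNF4Gsh2 minus HNF4Gsh1 (adjusted p = 0.190). That difference passed with the authors' normalized values (-0.71, adjusted p = 0.0400) and without background correction (adjusted p = 0.0395). SESN2, a leucine sensor, and VLDLR, a lipoprotein receptor induced by ATF4, were near background, detected on 6 and 5 of the 12 arrays. SESN2 was at 0.29 with HNF4Gsh1 and 0.22 with HNF4Gsh2, without a call, and was not detected on either shScr array with doxycycline, so no difference is given there. VLDLR was detected on 1 of 2 HNF4Gsh1 arrays with doxycycline and on 0 of 2 without it, so no fold is given. It did not pass there (adjusted p = 0.394). CHAC1 read 4.69 and 4.70 in HNF4Gsh1 cells with doxycycline, against 4.76 and 4.96 without it, 4.96 and 4.59 in HNF4Gsh2 cells, against 5.15 and 4.82, and 4.45 and 4.71 in shScr cells, against 4.83 and 4.76. Only 1 of these arrays, from HNF4Gsh2 cells without doxycycline, was above background, so no difference is given.

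The 10 amino acid and one-carbon enzymes that could be tested gave no call in any subline. ASNS, which makes asparagine and is the classical ATF4 target, was at 11.60 and 11.42 in HNF4Gsh1 cells with doxycycline, against 11.73 and 11.73 without it. It was at 11.49 and 11.63 in HNF4Gsh2 cells with doxycycline, against 11.89 and 11.93 without it, and at 11.80 and 11.73 in shScr cells, against 11.60 and 11.78. Treated arrays were lower without overlap with both hairpins, by small amounts: -0.22 ± 0.15 with HNF4Gsh1 and -0.35 ± 0.15 with HNF4Gsh2 (adjusted p = 0.263), with 0.07 ± 0.15 in shScr cells. Its second probe gave -0.28, -0.14 and -0.09.

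PHGDH, PSAT1 and PSPH carry out the successive steps of serine synthesis. PHGDH, the entry step, was at 12.11 and 11.83 in HNF4Gsh1 cells with doxycycline, against 12.42 and 12.27 without it, at 12.07 and 12.05 in HNF4Gsh2 cells, against 12.15 and 12.19, and at 12.26 and 12.06 in shScr cells, against 11.78 and 12.01. Its treated groups were lower in both hairpin sublines and higher in shScr cells, with changes of -0.37 ± 0.16, -0.11 ± 0.16 and 0.26 ± 0.16. PSAT1 was at 10.92 and 11.01 in HNF4Gsh1 cells with doxycycline, against 10.89 and 10.79 without it, at 11.09 and 11.15 in HNF4Gsh2 cells, against 11.08 and 11.11, and at 11.10 and 11.10 in shScr cells, against 10.94 and 10.87. Its 12 values spanned 0.36 and its changes were 0.12, 0.02 and 0.20, all without a call. PSPH was at 8.39 and 8.78 in HNF4Gsh1 cells with doxycycline, against 8.36 and 8.50 without it, at 8.34 and 8.53 in HNF4Gsh2 cells, against 8.47 and 8.44, and at 8.52 and 8.68 in shScr cells, against 8.25 and 8.40. Its groups overlapped in the hairpin sublines and lay apart in shScr cells, with changes of 0.16, -0.02 and 0.27 and none passing. The second PSPH probe gave -0.61, -0.26 and 0.21, a different sign with HNF4Gsh1 from the first.

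SHMT2 and MTHFD2, of the mitochondrial folate cycle, were at -0.21 and -0.29 with HNF4Gsh1, -0.04 and -0.04 with HNF4Gsh2, and 0.08 and -0.01 in shScr cells. ALDH18A1 and PYCR1 of proline synthesis were at 0.06 and -0.25 with HNF4Gsh1, 0.12 and -0.18 with HNF4Gsh2, and -0.05 and -0.06 in shScr cells. The other 2 PYCR1 probes gave -0.21 and 0.50 with HNF4Gsh1, 0.12 and -0.66 with HNF4Gsh2, and 0.55 and -0.50 in shScr cells, so the probes of PYCR1 did not give 1 direction. CBS and CTH, which route homocysteine toward cysteine, were at -0.22 and 0.04 with HNF4Gsh1, -0.10 and 0.25 with HNF4Gsh2, and -0.14 and 0.14 in shScr cells. CTH was detected on 9 of 12 arrays, and its dimmer probe gave 0.17, -0.42 and 0.57.

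None of the 7 amino acid transporters passed in any subline. Below 0 were 7 of 7 with HNF4Gsh1, 4 of 7 with HNF4Gsh2 and 6 of 7 in shScr cells, against 48.1%, 49.0% and 50.9% of all genes. One of the 7, SLC7A11, was not detected on either treated array of any subline. SLC3A2, the heavy chain that carries several transporters to the cell surface, was at 10.81 and 10.75 in HNF4Gsh1 cells with doxycycline, against 10.89 and 10.91 without it. It was at 10.72 and 10.37 in HNF4Gsh2 cells with doxycycline, against 11.21 and 11.04 without it, and at 10.71 and 10.91 in shScr cells, against 11.03 and 10.89. The gap was widest in HNF4Gsh2 cells, with changes of -0.12 ± 0.16, -0.58 ± 0.16 (adjusted p = 0.0910) and -0.15 ± 0.16. A second SLC3A2 probe fell by 0.80 with HNF4Gsh2 (SE 0.15) in the fit over all 19172 probes, where it passed (adjusted p = 0.0228) and the first probe did not (0.128). The second probe was at -0.18 with HNF4Gsh1 and at 0.30 in shScr cells, where its sign differed from the first.

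SLC7A5, the leucine transporter that pairs with SLC3A2, was at 11.91 and 11.96 in HNF4Gsh2 cells with doxycycline, against 12.25 and 12.43 without it, a change of -0.41 ± 0.14 (adjusted p = 0.175). SLC7A1, the arginine transporter, was at 9.13 and 9.35 in HNF4Gsh1 cells with doxycycline, against 9.66 and 9.66 without it, and its changes were -0.42 ± 0.16 with HNF4Gsh1, -0.38 ± 0.16 with HNF4Gsh2 and -0.01 ± 0.16 in shScr cells. SLC7A5 was at -0.21 ± 0.14 with HNF4Gsh1 and at -0.04 ± 0.14 in shScr cells, and neither gene passed in any subline. The neutral amino acid transporters SLC1A4, SLC1A5 and SLC38A2 were at -0.30, -0.22 and -0.08 with HNF4Gsh1, at 0.24, 0.10 and 0.31 with HNF4Gsh2, and at -0.17, -0.03 and -0.04 in shScr cells. SLC7A11, the cystine transporter, was at 4.70 and 4.72 in HNF4Gsh1 cells with doxycycline, against 4.96 and 5.17 without it, at 5.04 and 4.94 in HNF4Gsh2 cells, against 5.15 and 5.01, and at 4.86 and 4.58 in shScr cells, against 4.82 and 4.41. It was detected on 2 of the 12 arrays, 1 of each untreated hairpin subline, so no fold is given.

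The 11 aminoacyl-tRNA synthetases measured and XPOT, the tRNA exporter, had no call in any subline. With HNF4Gsh1 they ran from -0.32 (MARS1) to 0.14 (EPRS1) with 6 of 12 below 0, against 48.1% of all genes. With HNF4Gsh2 they ran from -0.40 (YARS1) to 0.50 (NARS1) with 8 of 12 below 0, against 49.0% of all genes. In shScr cells they ran from -0.30 (WARS1) to 0.18 (SARS1) with 9 of 12 below 0, against 50.9% of all genes. NARS1, which charges the asparagine tRNA, was at 11.92 and 11.74 in HNF4Gsh2 cells with doxycycline, against 11.25 and 11.40 without it. It was at 11.33 and 11.44 in HNF4Gsh1 cells with doxycycline, against 11.55 and 11.33 without it, and at 11.48 and 11.33 in shScr cells, against 11.38 and 11.39. The 2 treated HNF4Gsh2 arrays were the highest of the 12, opposite to the lower DDIT3, ATF5 and SLC3A2 in the same arrays, and the change of 0.50 ± 0.15 did not pass (adjusted p = 0.115). WARS1, which charges the tryptophan tRNA, was at 9.44 and 9.32 in shScr cells with doxycycline, against 9.76 and 9.59 without it, the smallest p of the set in shScr cells (-0.30 ± 0.15, adjusted p = 0.539). In the hairpin sublines WARS1 was at 9.55 and 9.49 with doxycycline, against 9.43 and 9.57 without it, for HNF4Gsh1, and at 9.32 and 9.37, against 9.38 and 9.45, for HNF4Gsh2. Its second probe gave -0.05, -0.28 and -0.01.

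**Figure D2:**
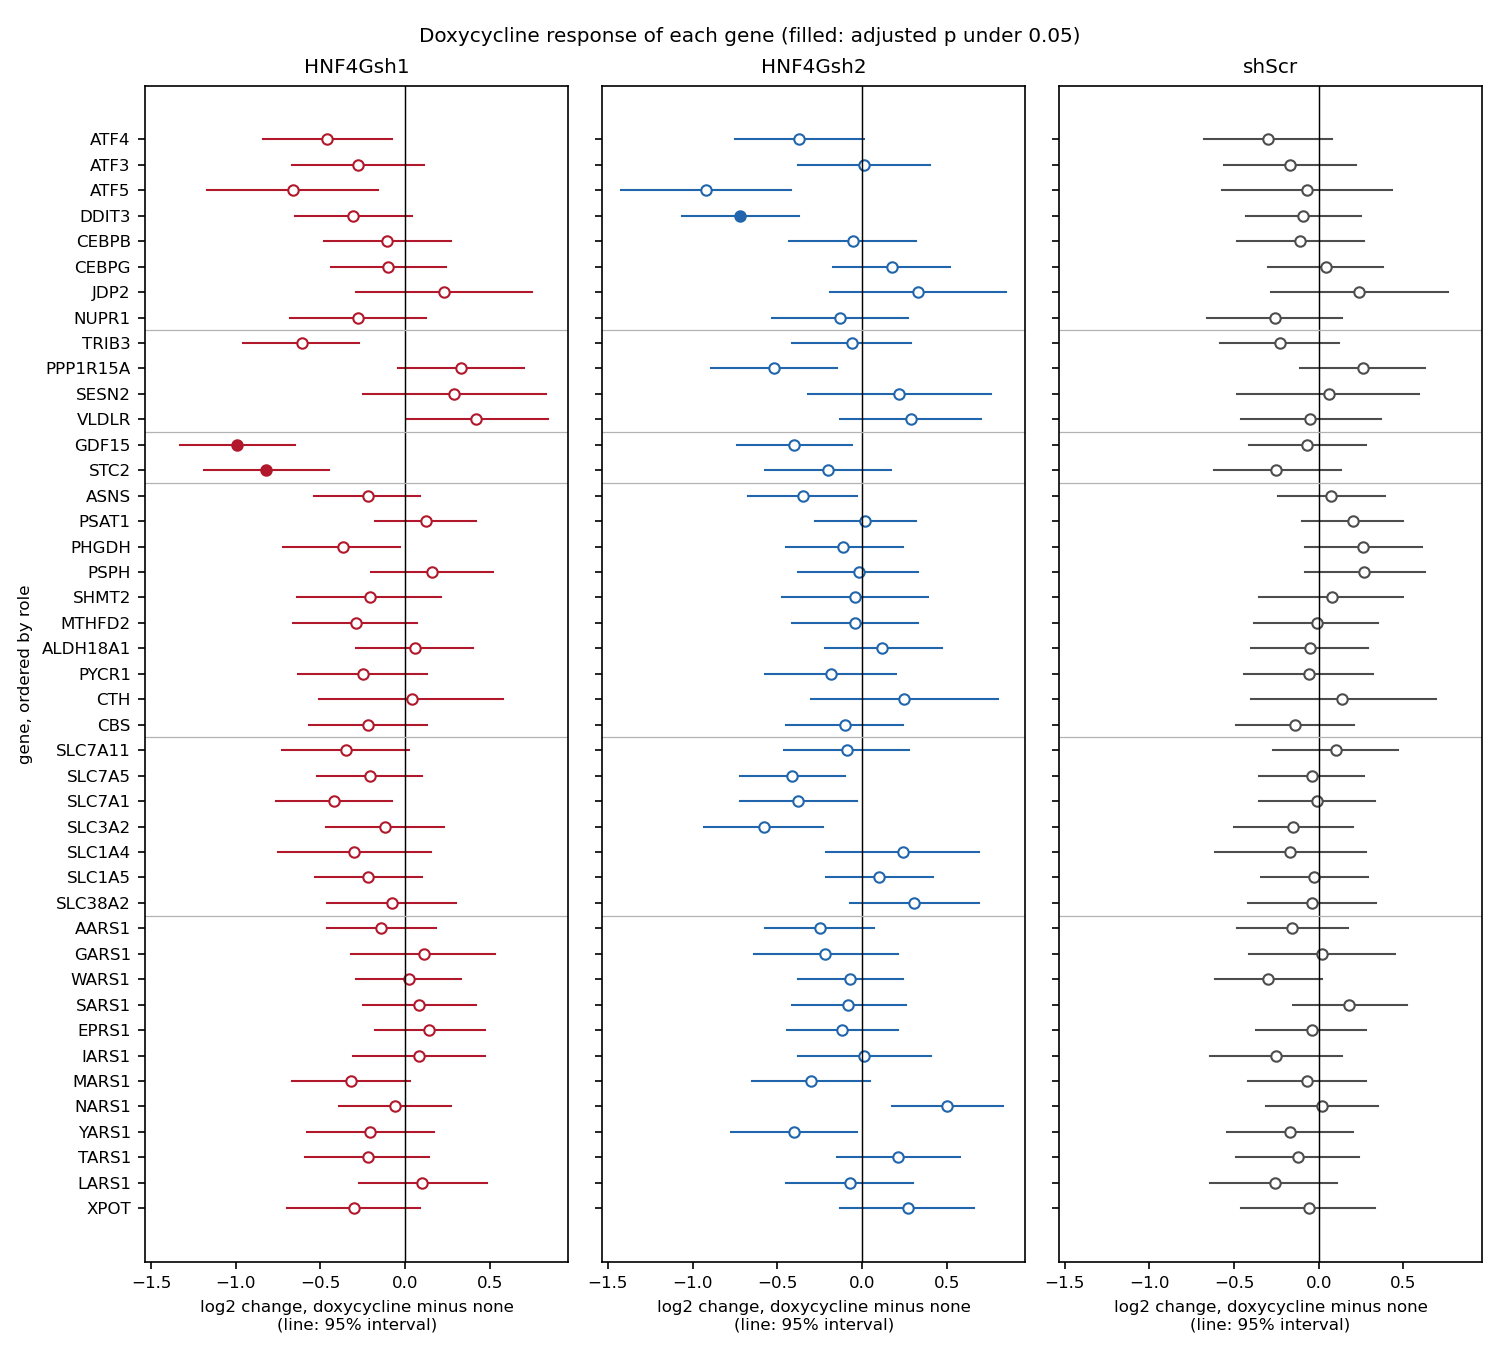
Log2 change with doxycycline minus without (horizontal axes) for each of the 43 genes (vertical axis, ordered by role) in HNF4Gsh1, HNF4Gsh2 and shScr cells; lines are 95% intervals and filled points passed at adjusted p under 0.05. Filled points are GDF15 and STC2 with HNF4Gsh1 (-0.99 and -0.82) and DDIT3 with HNF4Gsh2 (-0.72), and none in shScr cells.

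Over the 43 genes the median change was -0.21 with HNF4Gsh1, -0.07 with HNF4Gsh2 and -0.05 in shScr cells, beside medians of 0.01, 0.01 and -0.01 over all genes tested. The share of members below 0 was similar in the sublines, at 67.4%, 65.1% and 67.4%, against 48.1%, 49.0% and 50.9% of all genes. The separation of the arrays was counted as well. With HNF4Gsh1, 22 of 43 members (51.2%) had both treated arrays below both untreated arrays, against 20.5% of all genes. With HNF4Gsh2 it was 17 of 43 (39.5%), against 23.6% of all genes, and in shScr cells 7 of 43 (16.3%), against 20.1% of all genes. Members with both treated arrays above both untreated ones numbered 4 with HNF4Gsh1, 9 with HNF4Gsh2 and 5 in shScr cells, against 23.3%, 24.6% and 18.2% of all genes. These counts describe 1 chosen list and were not tested.

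Scaling the arrays to the same median in place of quantile normalization moved the median of all genes by itself, to 0.16 with HNF4Gsh1, 0.03 with HNF4Gsh2 and -0.16 in shScr cells. Under that scaling the members' medians were -0.05, -0.05 and -0.23, so they stayed below the median of all genes in each subline. The count of members lower without overlap was then 9 with HNF4Gsh1 (7.96% of all genes), 13 with HNF4Gsh2 (21%) and 12 in shScr cells (24.6%).

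By role, the median changes with HNF4Gsh1, HNF4Gsh2 and shScr were -0.91, -0.30 and -0.16 for the 2 secreted proteins and -0.28, -0.09 and -0.10 for the 8 transcription factors. They were -0.22, -0.04 and 0.08 for the 10 enzymes and -0.22, -0.09 and -0.04 for the 7 transporters. The 12 synthetase and export genes gave -0.02, -0.07 and -0.10, and the 4 feedback regulators and effectors 0.31, 0.08 and 0.00. Of those 4, SESN2 and VLDLR were near background, detected on 6 and 5 of the 12 arrays. TRIB3 and PPP1R15A, detected on all 12, were at -0.61 and 0.33 with HNF4Gsh1. No role median was tested. For scale, a member's 2 replicate arrays differed by a median of 0.12 to 0.19.

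**Figure D3:**
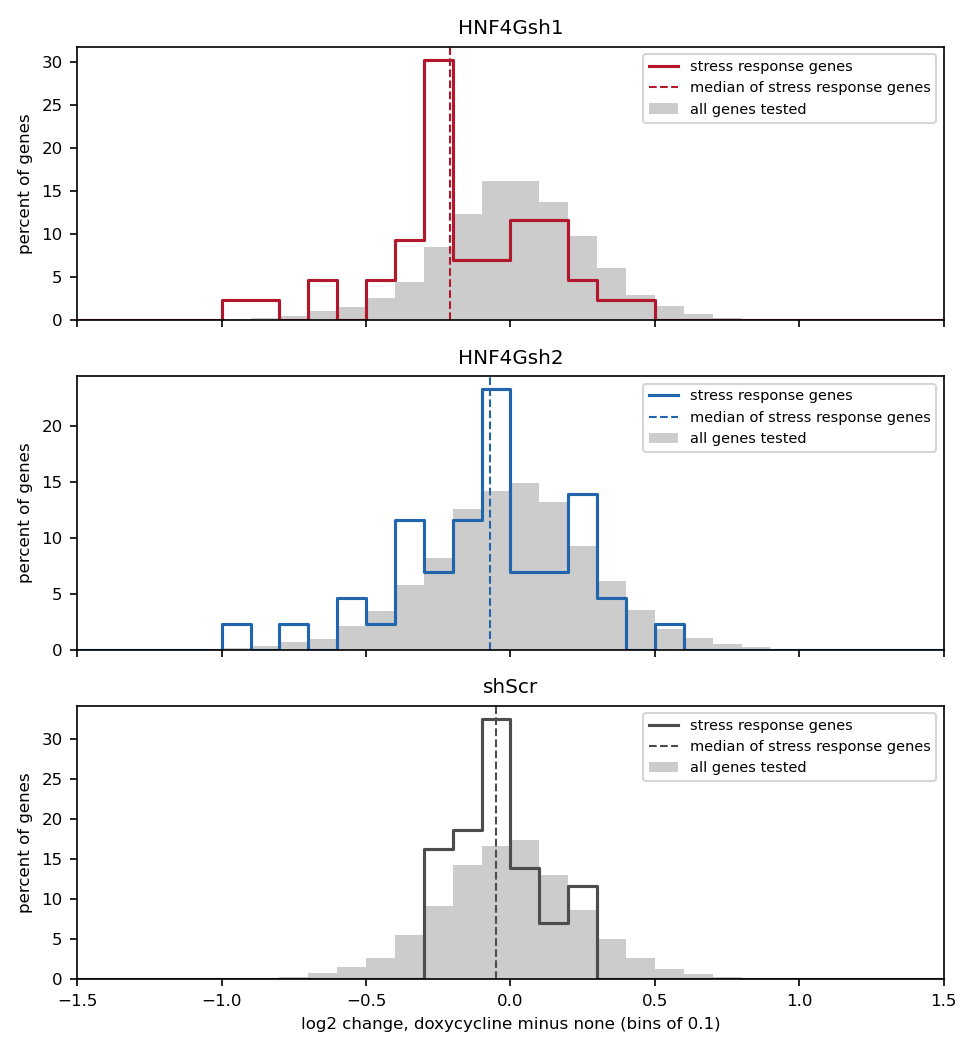
Percent of genes (vertical axes) by log2 change with doxycycline minus without, in bins of 0.1 (horizontal axes), for the 43 stress response genes (coloured outline) and all 11164 genes tested (grey) in HNF4Gsh1, HNF4Gsh2 and shScr cells. The dashed lines are the members' medians of -0.21, -0.07 and -0.05.

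The hairpin responses share no arrays and can be set side by side. Both changes were below 0 for 21 of 43 members (48.8%), against 26.0% of all genes, and both above 0 for 7 members (16.3%), against 28.9% of all genes. Treated arrays lay below untreated arrays without overlap with both hairpins for 10 of 43 members (23.3%), against 6.61% of all genes. These 10 were ASNS, ATF4, ATF5, DDIT3, GDF15, MARS1, PHGDH, SLC3A2, SLC7A1 and SLC7A5, singled out after their values were seen. The 7 members above 0 with both hairpins were ALDH18A1, CTH, IARS1, JDP2, PSAT1, SESN2 and VLDLR, of which 4 were detected on fewer than 12 arrays. The members with the smallest p were GDF15, STC2 and TRIB3 with HNF4Gsh1, and DDIT3, ATF5 and SLC3A2 with HNF4Gsh2.

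**Figure D4:**
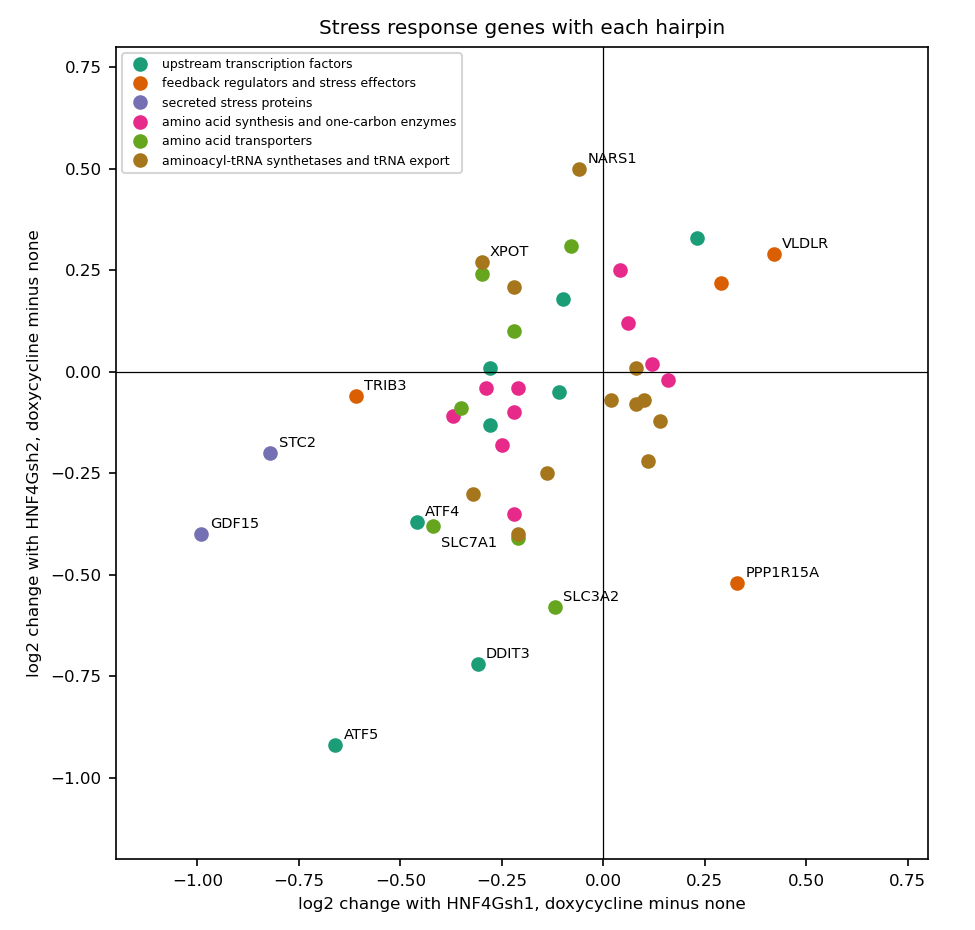
Log2 change with doxycycline minus without in HNF4Gsh2 cells (vertical axis) against that in HNF4Gsh1 cells (horizontal axis) for the 43 genes, coloured by role; each point is 1 gene. At the lower left, where both are below 0, lie 21 genes, with GDF15 and STC2 far to the left, ATF5 and DDIT3 lowest, and PPP1R15A apart at the lower right.

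Set against the shScr control, 0 of 43 members passed for HNF4Gsh1 minus shScr (0.314% of all genes passed), HNF4Gsh2 minus shScr (0.322%) or the mean of the hairpins minus shScr (0.269%). At an unadjusted p under 0.05 there were 3 members lower for HNF4Gsh1 (5.20% of all genes), 3 lower (6.59%) and 1 higher (6.31%) for HNF4Gsh2, and 4 lower for the mean (5.98%). All 3 contrasts use the same shScr arrays. GDF15 had the smallest p for HNF4Gsh1 (-0.93 ± 0.23, 95% interval -1.41 to -0.44, adjusted p = 0.127), followed by PHGDH (-0.64 ± 0.23, 0.299) and STC2 (-0.58 ± 0.24, 0.401). GDF15 passed this contrast with the authors' normalized values (-0.72, adjusted p = 0.0292) and without background correction (-0.72, adjusted p = 0.0281). For HNF4Gsh2 the leading genes by their brightest probe were PPP1R15A (-0.79 ± 0.24, adjusted p = 0.183), DDIT3 (-0.63 ± 0.23, 0.261) and ATF5 (-0.84 ± 0.33, 0.288). The second SLC3A2 probe was lower still in the fit over all probes, at -1.09 ± 0.21, and did not pass (adjusted p = 0.0606). The first SLC3A2 probe was at -0.43 there. For the mean of both hairpins the second probe was at -0.79 ± 0.18 (adjusted p = 0.128) and the first at -0.20. By the brightest probe, the leading genes for that mean were GDF15 (-0.63 ± 0.20, adjusted p = 0.207), PHGDH (-0.50 ± 0.20, 0.312) and ATF5 (-0.72 ± 0.29, 0.322). The falls of GDF15, STC2 and DDIT3 are thus not shown to exceed the response of shScr cells by the test of that difference.

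Between the hairpins, 0 of 43 members passed for HNF4Gsh2 minus HNF4Gsh1 (0.206% of all genes), with 5 members higher and 1 lower at an unadjusted p under 0.05, against 5.32% and 5.66% of all genes. The intervals of single genes left room for sizeable differences: GDF15 was at 0.59 (95% interval 0.11 to 1.08, adjusted p = 0.341), STC2 at 0.62 (0.10 to 1.15, 0.354) and NARS1 at 0.56 (0.10 to 1.03, 0.345). The largest difference went the other way, PPP1R15A at -0.86, and did not pass either.

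Without doxycycline, 0 of 43 members passed between HNF4Gsh1 and shScr cells (0.627% of all genes) or between HNF4Gsh2 and shScr cells (0.484%). At an unadjusted p under 0.05 (5.25% of all genes as higher), STC2, PHGDH and ATF3 were above shScr in HNF4Gsh1 cells, by 0.52 ± 0.17, 0.45 ± 0.16 and 0.48 ± 0.18 (adjusted p 0.270 to 0.365). SLC7A11 was also below that unadjusted p in both comparisons, in HNF4Gsh2 cells as the single member (5.92% of all genes as higher), but it was not detected on either untreated shScr array and on 1 of 2 untreated arrays of each hairpin subline, so no difference is given for it. GDF15 and WARS1 followed in HNF4Gsh2 cells at 0.31 ± 0.16 (0.509) and -0.26 ± 0.15 (0.545). HBA1 of the blood markers was lower in untreated HNF4Gsh1 cells than in untreated shScr cells (-0.84 ± 0.16, adjusted p = 0.0304), and its part in these values was not tested. Against their own mean over all 12 arrays, the members' median deviation was -0.04 and -0.07 on the HNF4Gsh1 arrays with doxycycline and 0.10 and 0.06 without it. It was -0.07 and -0.06 on the HNF4Gsh2 arrays with doxycycline and -0.03 and 0.11 without it, and -0.01 and 0.01 on the shScr arrays with doxycycline and 0.03 and 0.04 without it. The untreated HNF4Gsh1 arrays and replicate 2 of untreated HNF4Gsh2 were the highest, and all medians lay within 0.11 of 0.

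**Figure D5:**
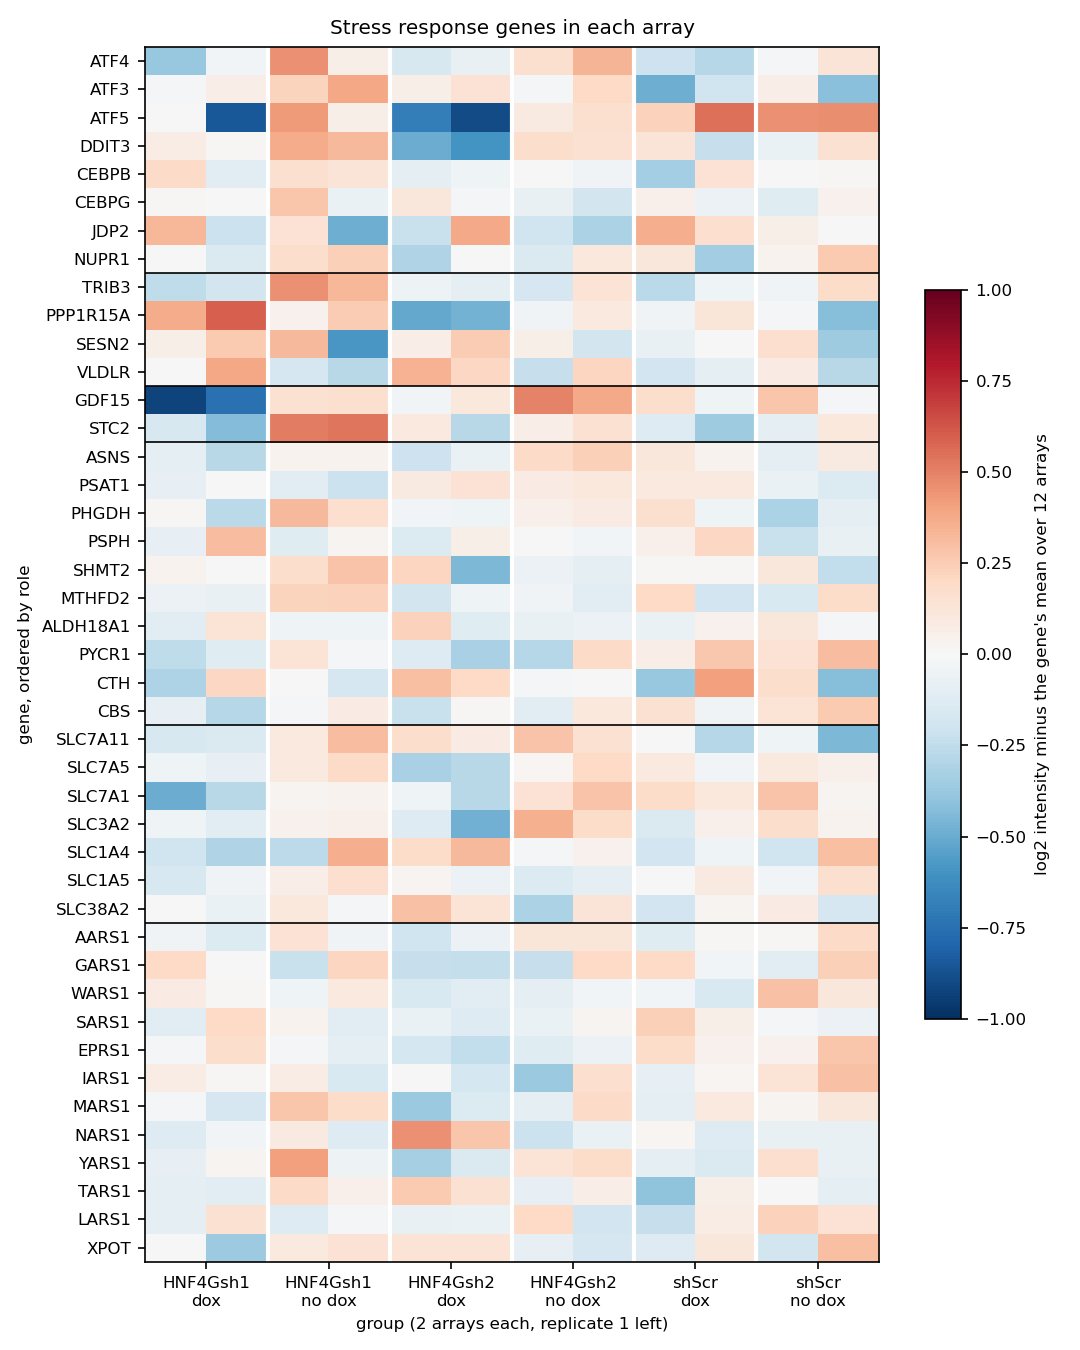
Log2 intensity minus the gene's mean over 12 arrays (colour scale, red above and blue below) for the 43 genes (rows, ordered by role) on the 12 arrays (columns, 2 a group). GDF15 is blue on the HNF4Gsh1 arrays with doxycycline, and ATF5 and DDIT3 are blue on the HNF4Gsh2 arrays with doxycycline.

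Among other genes of the pathway, EIF2S2 and NIBAN1 fell with doxycycline, both in HNF4Gsh2 cells. Of 19 genes for eIF2 kinases, phosphatases, eIF2 and its exchange factor eIF2B, 0 passed with HNF4Gsh1, 1 passed as lower with HNF4Gsh2 and 0 passed in shScr cells, against 1.06% of all genes with HNF4Gsh1, 1.42% as lower with HNF4Gsh2 and 0.0269% in shScr cells. The medians were 0.04, 0.03 and 0.06. The gene that passed was EIF2S2, the beta subunit of eIF2, at 7.52 and 7.65 in HNF4Gsh2 cells with doxycycline, against 8.27 and 8.17 without it (-0.64 ± 0.15, adjusted p = 0.0450). In shScr cells it was at 7.31 and 7.39 with doxycycline, against 8.19 and 8.36 without it, a larger difference that missed the threshold (-0.92 ± 0.15, adjusted p = 0.0513), and in HNF4Gsh1 cells at 7.96 and 8.08, against 7.85 and 8.06. EIF2S2 was thus low with doxycycline in 2 sublines, one of them the shScr control.

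Of 22 measured further ATF4 targets and amino acid enzymes, 1 passed as lower with HNF4Gsh2, against 1.42% of all genes, and 0 in the other sublines, with medians of -0.06, 0.05 and -0.09 with HNF4Gsh1, HNF4Gsh2 and shScr. NIBAN1, a stress protein that affects translation, was at 7.23 and 7.32 in HNF4Gsh2 cells with doxycycline, against 7.83 and 8.25 without it (-0.76 ± 0.18, adjusted p = 0.0470). It was at 8.02 and 8.02 in HNF4Gsh1 cells with doxycycline, against 7.94 and 8.39 without it, and at 7.30 and 7.23 in shScr cells, against 7.42 and 7.33, so the treated HNF4Gsh2 cells were near the shScr level. DDIT4, an inhibitor of mTOR induced by stress, was at 10.24 and 10.36 in untreated HNF4Gsh1 cells, against 9.50 and 9.29 in untreated shScr cells, and was higher there by 0.91 ± 0.18 (adjusted p = 0.0304). Of all genes, 0.627% passed in that comparison of untreated cells. With doxycycline DDIT4 was at 9.72 and 9.50 in HNF4Gsh1 cells, a change of -0.69 ± 0.18 that did not pass (adjusted p = 0.0845). In shScr cells it was at 9.01 and 9.17 with doxycycline, so it was lower without overlap in the control as well. In HNF4Gsh2 cells it was at 9.80 and 9.47, against 10.01 and 9.69 without doxycycline, and these groups overlapped.

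No gene passed in any subline among 9 further cytosolic synthetases and cofactors, 15 mitochondrial synthetases, 18 genes of the unfolded protein response of the endoplasmic reticulum and 7 genes of mitochondrial stress. Their medians with HNF4Gsh1, HNF4Gsh2 and shScr were -0.04, 0.05 and -0.12 for the cytosolic synthetases, 0.09, 0.16 and 0.02 for the mitochondrial ones, 0.01, -0.08 and 0.00 for the unfolded protein response, and -0.01, -0.07 and 0.11 for mitochondrial stress. Of all genes, 1.06% passed with HNF4Gsh1, 2.07% with HNF4Gsh2 and 0.0269% in shScr cells. At an unadjusted p under 0.05 each of these lists had at most 2 genes in a subline. The shares of all genes were 6.55% lower and 5.80% higher with HNF4Gsh1, 7.82% and 7.59% with HNF4Gsh2, and 9.64% in either direction in shScr cells. With lists this short, such counts do not show an absence of change.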

How the data were processed

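RNA from 12 samples of 22Rv1 sublines, 6 groups of 2 taken from the sample labels, was measured on Illumina HumanHT-12 v4 bead arrays. Per the submitters' processing notes the authors used BeadStudio and Partek, versions not given in the sources used here. The deposited table holds raw intensity for 47323 probes with a detection p-value, per the file headers; the deposited series matrix holds the authors' normalized log2 values, which correlate at 0.999998 or more per array with quantile normalization without background correction.

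In R 4.3.3 with limma 3.58.1, neqc (normexp by detection p, offset 16, quantile, log2) was run on the intensities. Probes with detection p under 0.01 on at least 2 arrays were kept (19172), the brightest per gene was used, and limma's lmFit with 1 mean for each of the 6 groups, then eBayes, gave 9 contrasts, two-sided, adjusted by Benjamini-Hochberg over 11164 genes (threshold 0.05). The number of arrays limits the precision. A gene undetected on both arrays of a group and detected on both arrays of the other is given as a bound. The bound sets the bright group's mean against, per array, the higher of the lowest detected signal and its own. Values in every array are given for 8 fixed genes, for members past the threshold and for the 3 smallest p per contrast; the other members were described by ranges or, where they stand out, named after their values were seen. The members and lists were chosen with earlier results of these data known. The pipeline was tested on simulated data. Alternatives were normalization, background correction, detection filters, probe choice, array weights, replicate block and leaving out each array.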

Additional observations from a re-analysis of the deposited data

How the results depend on the processing

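Direction held for most values, over 8 alternative settings and 12 fits that left out 1 array each. Values that had not passed mostly stayed so. The 3 calls were less stable, and GDF15, STC2 and DDIT3 all lost theirs with arrays scaled to the same median. Members called with HNF4Gsh1 numbered 2 and became 0 with arrays scaled to the same median and 1 (GDF15) without a detection filter, and 0 to 2 when 1 array was left out. Members called with HNF4Gsh2 numbered 1 and became 0 with the same median, 2 with array weights (ATF5, DDIT3), 2 with the mean of a gene's probes (DDIT3, SLC3A2), 3 with probes detected on all 12 arrays (ATF5, DDIT3, SLC3A2), 6 with the authors' normalized values and 6 without background correction (ATF5, DDIT3, PPP1R15A, SLC7A5, SLC3A2 and NARS1 in both), and 0 to 1 when 1 array was left out. The response of HNF4Gsh1 minus shScr had 0 members and 1 (GDF15) with the authors' values and 1 without background correction, and that of HNF4Gsh2 minus HNF4Gsh1 had 0 and 1 (PPP1R15A) under the same 2 settings; the cause was not tested. The remaining 5 contrasts had 0 in every setting. Over all genes, calls with HNF4Gsh2 were 231, against 498 with the authors' values, 495 without background correction, 385 on probes detected on all arrays and 118 with the same median; for HNF4Gsh1 minus shScr 35, against 91 and 92 with the authors' values and without background correction; and for HNF4Gsh2 minus HNF4Gsh1 23, against 134 in both. ATF4 in shScr cells was -0.30 and became 0.02 with the mean of its probes. With arrays scaled to the same median the members' median was -0.23 in shScr cells (all genes -0.16), 0.24 for HNF4Gsh1 minus shScr (all genes 0.32), 0.17 for HNF4Gsh2 minus shScr (0.19) and 0.17 for the mean hairpin response minus shScr (0.26), above 0 where quantile normalization gave -0.11, -0.03 and -0.08; for HNF4Gsh2 minus HNF4Gsh1 it was -0.07 (all genes -0.13), against 0.07. Replicate numbers are shared between groups; with the replicate number as a replicate block the counts were 2 with HNF4Gsh1, 1 with HNF4Gsh2 and 0 in the other contrasts, and replicate differences correlated at -0.03 to 0.07 over 15 pairs of groups, 0 of them above 0.1. Slide as a block was not run because the files name no slide. GDF15 stayed negative with HNF4Gsh1 in all fits that left out 1 array, between -1.08 and -0.90, as did STC2 between -0.96 and -0.69 and DDIT3 with HNF4Gsh2 between -0.77 and -0.67. Members close to background (SLC7A11, VLDLR, SESN2, JDP2 and CTH) are near background, which limits how far a fall can be measured.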
